A study of Homo sapiens with 9 samples.

Results

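The genes described here are those whose expression with the siRNAs si025 and si033 lay on the same side of control. The cells were VCaP, a cell line established from a prostate cancer metastasis. A gene was a member when the normalised read counts relative to library size (CPM, with TMM scaling) of all 6 knockdown libraries lay above, or all lay below, those of all 3 control libraries. Of the 19918 genes in the count tables, 4354 were members, with 2209 above control ("raised") and 2145 below it ("lowered"). The members were thus chosen by the measured values, so their differences from control are given as a description, without a test. The contrast between si025 and si033 was not itself used in the choice and was tested.

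The groups were si025, si033 and control, all of VCaP cells, and each held 3 libraries. Per the labels, cells received 100 pmol of siRNA by reverse transfection and were harvested after 72 h, and 1.3 µg of total RNA was taken per library. Both siRNAs were aimed at *IGF1R-AS1*, a long non-coding RNA (lncRNA) transcribed antisense to *IGF1R*, the gene of a growth factor receptor. The labels call the control group wild type by genotype and do not name its siRNA. The study's methods describe a control siRNA. Levels of the siRNA target are not given here, and how far it was depleted is not known from these libraries. Nothing in the labels says that replicates came from separate cultures, and p-values then measure only the spread between these libraries.

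An siRNA guide strand is loaded into an Argonaute protein and directs cleavage of transcripts that pair with it along its length. Shorter pairing, between the seed of the guide strand and a 3′ untranslated region (3′ UTR), can also lower transcripts, as it does for microRNAs. A shared response of several siRNAs to 1 target is commonly used to tell effects of the target from effects of a single siRNA sequence. In such a design, the control siRNA is common to all comparisons. The study examined *IGF1R-AS1* for its part in the expression of *MYC*, which encodes a transcription factor for genes of ribosome production, nucleotide synthesis and the cell cycle.

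Library totals ranged from 11649811 to 28492259 counts, a 2.45-fold range within which every group overlapped. The prostate epithelial markers were all detected. Of the markers of other cell types, 2 of 9 fibroblast, 2 of 7 leukocyte and 1 of 6 endothelial genes passed the filter on low counts, and *THY1*, *CD3E*, *CDH5* and *CLDN5* had 0 counts in every library. Within groups, replicate libraries differed by more than counting noise, and none was treated as a duplicate.

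Of the 12810 genes with enough counts to be tested, 2128 were raised (16.6% of genes tested) and 2082 were lowered (16.3%). A further 144 members, 81 raised and 63 lowered, did not pass the filter. The highest CPM of these in any library was 1.33, and 11 of them were at 0 in all control libraries (7 genes) or in all knockdown libraries (4 genes). With scaling to library totals in place of TMM, 2698 members were raised and 1633 lowered, so the even split between directions depends on the scaling.

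Most shared differences were small. The median log2 fold change of the raised members was 0.49 with si025 and 0.43 with si033, and that of the lowered members was -0.35 and -0.29. Over all genes tested the medians were 0.017 and 0.0033. With both siRNAs, 155 raised members and 24 lowered members differed from control by at least 2-fold, and 545 and 145 by at least 1.5-fold. The large shared differences were therefore mostly increases over control.

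At the edge of the rule, the groups nearly touched. The raised members *DSTYK* and *SYTL1* had gaps of 0.00027 and 0.00032 on the log2 scale between their nearest knockdown and control libraries. Just outside the rule, *TMEFF2* and *PLIN3* had gaps of -9.97e-06 and -0.00021, a negative gap being an overlap. Among lowered genes, *UBB* and *PSMB5* were just inside with gaps of 0.00024 and 0.00025, and *CLASRP* and *USP13* just outside with -0.00018 and -0.00032. Gaps of at least 0.1 on the log2 scale were held by 1415 raised and 1173 lowered members that passed the filter, and gaps of at least 0.5 by 278 and 94.

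The leading raised members had varied roles. *ATP2B2*, which encodes a plasma membrane calcium pump, was at 0.70, 1.23 and 1.20 CPM in the control libraries, at 5.92, 6.4 and 5.17 CPM with si025 and at 4.45, 4.72 and 5.11 CPM with si033. The log2 fold changes were 2.41 (standard error, SE, 0.19) and 2.14 (SE 0.20), the largest shared increase over control among genes that reached 5 CPM. *QPCT*, the enzyme that forms N-terminal pyroglutamate, stood at 4.63, 5.80 and 5.25 CPM in control cells, at 24.3, 22.8 and 25.3 CPM with si025 and at 18.6, 23.6 and 20.1 CPM with si033. The groups of both genes were far apart, with gaps of 1.85 and 1.68 on the log2 scale between the nearest knockdown and control libraries.

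*MDK*, which encodes the secreted heparin-binding growth factor midkine, was the most abundant of the leading raised genes in CPM. It was counted at 89.0, 94.0 and 86.5 CPM in control cells, at 309, 343 and 307 CPM with si025 and at 306, 295 and 300 CPM with si033, or 3.57-fold and 3.35-fold over control. For *TMCO1*, an endoplasmic reticulum (ER) calcium channel gene, the control libraries held 26.8, 23.8 and 26.3 CPM, the si025 libraries 91.8, 101 and 97.0 CPM and the si033 libraries 82.2, 93.9 and 88.6 CPM. The knockdown libraries of each siRNA were alike and well separated from control in both genes.

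*STRADB*, a pseudokinase partner of the kinase LKB1, lay at 9.86, 8.19 and 8.23 CPM in control cells, at 33.7, 29.9 and 32.5 CPM with si025 and at 31.8, 30.9 and 33.5 CPM with si033. *CAPN2*, the catalytic subunit of a calcium-dependent protease, had 55.7, 49.7 and 58.1 CPM in control, 162, 154 and 165 CPM with si025 and 151, 148 and 150 CPM with si033. The Golgi GTPase gene *RAB6B* had 16, 17.5 and 17.1 CPM in control, 46.9, 47.0 and 47.1 CPM with si025 and 48.7, 45 and 46.7 CPM with si033. In these 3 genes the si025 and si033 libraries overlapped or nearly did, and their log2 fold changes ranged from 1.45 to 1.90.

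Expressed at lower levels in CPM, *KCND3*, which encodes a voltage-gated potassium channel, rested at 1.48, 1.09 and 1.89 CPM in control cells and reached 7.16, 6.30 and 7.16 CPM with si025 and 3.87, 5.65 and 3.87 CPM with si033. *ADAM23*, a cell adhesion protein gene, had 1.92, 1.74 and 1.89 CPM in control, 4.67, 5.46 and 5.04 CPM with si025 and 8.41, 8.12 and 8.56 CPM with si033. The order of the siRNAs differed between these genes, si025 being higher for *KCND3* and si033 for *ADAM23*. The remaining leading raised genes were *SLC7A14*, of a family of amino acid transporters, *SCRN1* and *LRRN1*, a leucine-rich repeat membrane protein gene. Their log2 fold changes were 1.60 and 1.90, 1.47 and 1.68, and 1.43 and 1.5 with si025 and si033.

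**Figure D1:**
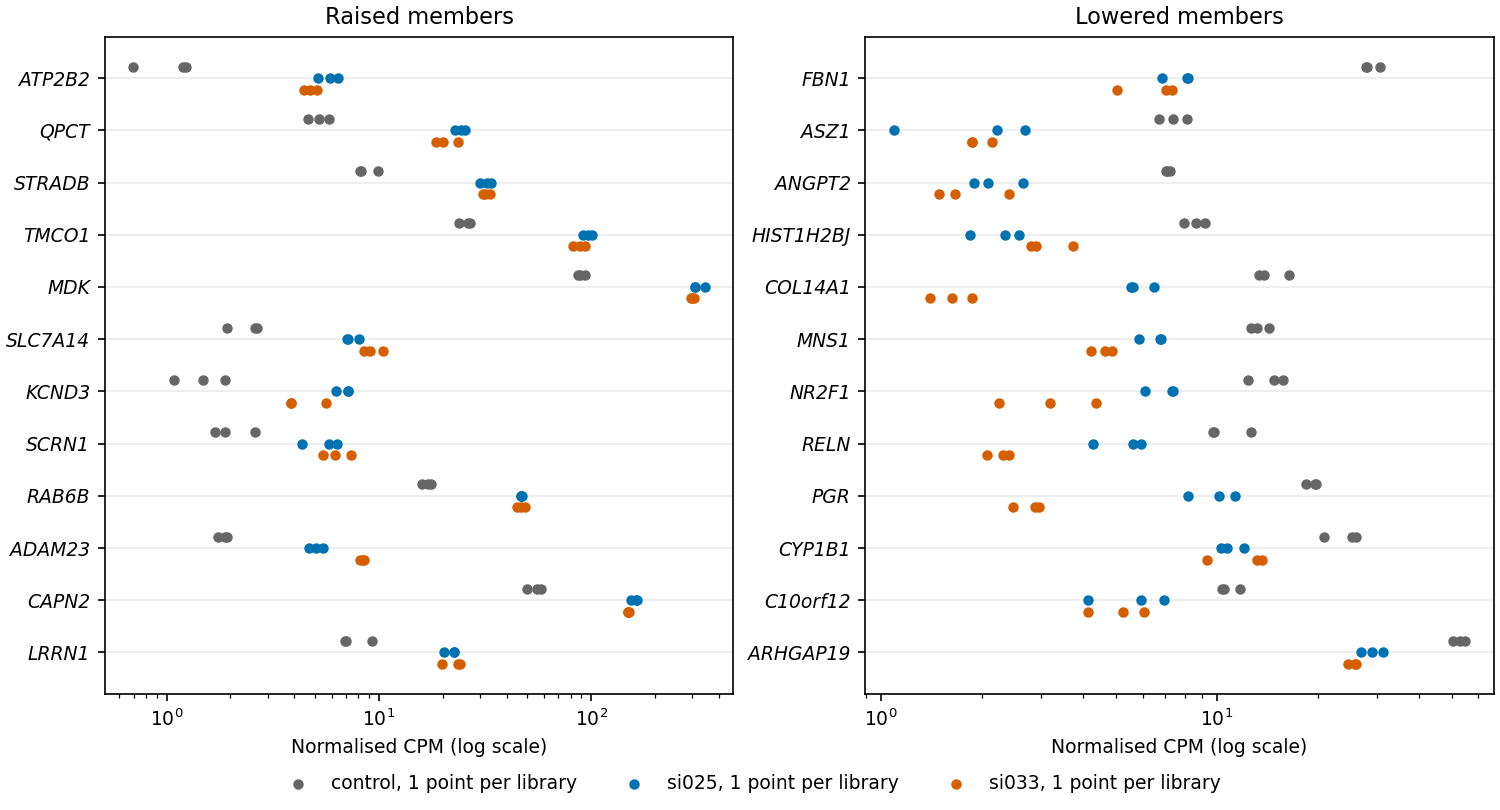
Normalised CPM (log axis) of the 12 raised and the 12 lowered members with the largest shared change, 1 point per library for control, si025 and si033. By the rule, no knockdown point overlaps a control point, and the si033 points of *COL14A1*, *PGR* and *RELN* lie well below their si025 points.

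Among the lowered members that reached 5 CPM, *FBN1* had the largest shared decrease. It encodes fibrillin, a structural protein of extracellular microfibrils, and was at 30.5, 27.7 and 27.9 CPM in control cells, at 8.18, 6.85 and 8.14 CPM with si025 and at 7.33, 5.03 and 7.04 CPM with si033. The log2 fold changes were -1.89 (SE 0.10) and -2.12 (SE 0.10). *ANGPT2*, a ligand of the endothelial receptor TIE2, was at 7.25, 7.10 and 7.07 CPM in control, at 2.65, 1.89 and 2.08 CPM with si025 and at 1.48, 2.40 and 1.66 CPM with si033. The germ cell gene *ASZ1* lay between 6.72 and 8.11 CPM in control and between 1.09 and 2.68 CPM in all 6 knockdown libraries. In all 3 genes the siRNAs overlapped each other and no knockdown library exceeded 8.18 CPM.

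Several lowered members were below control with both siRNAs but lower still with si033. *PGR*, the progesterone receptor gene, had 19.6, 18.4 and 19.5 CPM in control, 11.3, 8.19 and 10.1 CPM with si025 and 2.47, 2.94 and 2.86 CPM with si033. *COL14A1*, a collagen gene, had 13.8, 16.4 and 13.4 CPM in control, 5.61, 6.50 and 5.53 CPM with si025 and 1.40, 1.62 and 1.86 CPM with si033. *RELN*, which encodes the secreted glycoprotein reelin, had 12.7, 9.71 and 9.77 CPM in control, 5.92, 4.27 and 5.62 CPM with si025 and 2.31, 2.40 and 2.07 CPM with si033. The si033 libraries were the lowest of the 3 groups in each, without overlap. *NR2F1*, a nuclear receptor gene, followed the same order, with log2 fold changes of -1.03 and -2.12.

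The other leading lowered genes were *MNS1*, *CYP1B1*, *C10orf12*, *ARHGAP19* and *HIST1H2BJ*. *CYP1B1*, a cytochrome P450 enzyme, was at 20.8 to 25.9 CPM in control and at 9.31 to 13.6 CPM in the knockdown libraries. *ARHGAP19*, a GTPase-activating protein gene, was at 50.5 to 54.8 CPM and at 24.6 to 31.1 CPM. *HIST1H2BJ* is a histone gene with near-identical copies, so its counts are less certain than the others.

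Most of the listed genes of cell division were lowered. Of 50 mitotic genes tested, 47 were lowered (94.0%, against 16.3% of all genes tested) and 0 raised, with median log2 fold changes of -0.71 with si025 and -0.44 with si033. *CENPF*, a kinetochore protein gene, was at 354, 350 and 380 CPM in control, at 183, 157 and 179 CPM with si025 and at 209, 208 and 215 CPM with si033. The cyclin gene *CCNB1* was at 311, 335 and 332 CPM in control, at 179, 188 and 180 CPM with si025 and at 204, 222 and 207 CPM with si033. In both genes the si025 libraries were the lowest and the 3 groups did not overlap. *KIF23* and *HMMR*, of the spindle midzone and the spindle, had log2 fold changes of -0.78 and -0.65 and of -0.91 and -0.82.

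Genes of DNA replication were arranged in the same way, with 38 of 44 lowered and 0 raised. The median log2 fold change was -0.77 with si025 and -0.34 with si033. *RRM2*, a subunit of the enzyme that makes deoxynucleotides, was at 311, 334 and 325 CPM in control, at 150, 145 and 145 CPM with si025 and at 205, 224 and 215 CPM with si033. The licensing factor *CDC6* was at 148 to 150 CPM in control, at 69.5 to 73.2 CPM with si025 and at 88.3 to 92.5 CPM with si033. The list also held *GINS2* and *POLA2*, with log2 fold changes of -1.10 and -0.64 and of -0.78 and -0.65. The si033 libraries thus lay between si025 and control in each of the 4 genes.

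MYC target genes, chosen for ribosome production and metabolism, comprised 33 lowered and 1 raised member of 39 tested (medians -0.41 and -0.25). *ODC1*, the first enzyme of polyamine synthesis, was at 442, 441 and 447 CPM in control, at 190, 204 and 196 CPM with si025 and at 279, 301 and 281 CPM with si033. The nucleolar gene *TCOF1* had log2 fold changes of -0.88 and -0.42. The raised member was *NOP58*, a nucleolar protein of snoRNA complexes, at 0.13 and 0.48. Among the 17 genes the study discussed or measured, 10 were lowered and 4 raised. The study chose them with these samples in hand, so their direction is not independent evidence. *MYC* itself was a lowered member, with log2 fold changes of -0.78 and -0.52. *IGF1R* was not a member, with log2 fold changes of 0.04 and 0.28. Its si025 libraries (406 to 466 CPM) overlapped control (417 to 420 CPM). Its si033 libraries, at 499 to 514 CPM, all lay above control. *CLNS1A*, a splicing complex assembly factor, was raised, at 103, 103 and 111 CPM in control, 152, 159 and 152 CPM with si025 and 190, 197 and 191 CPM with si033.

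**Figure D2:**
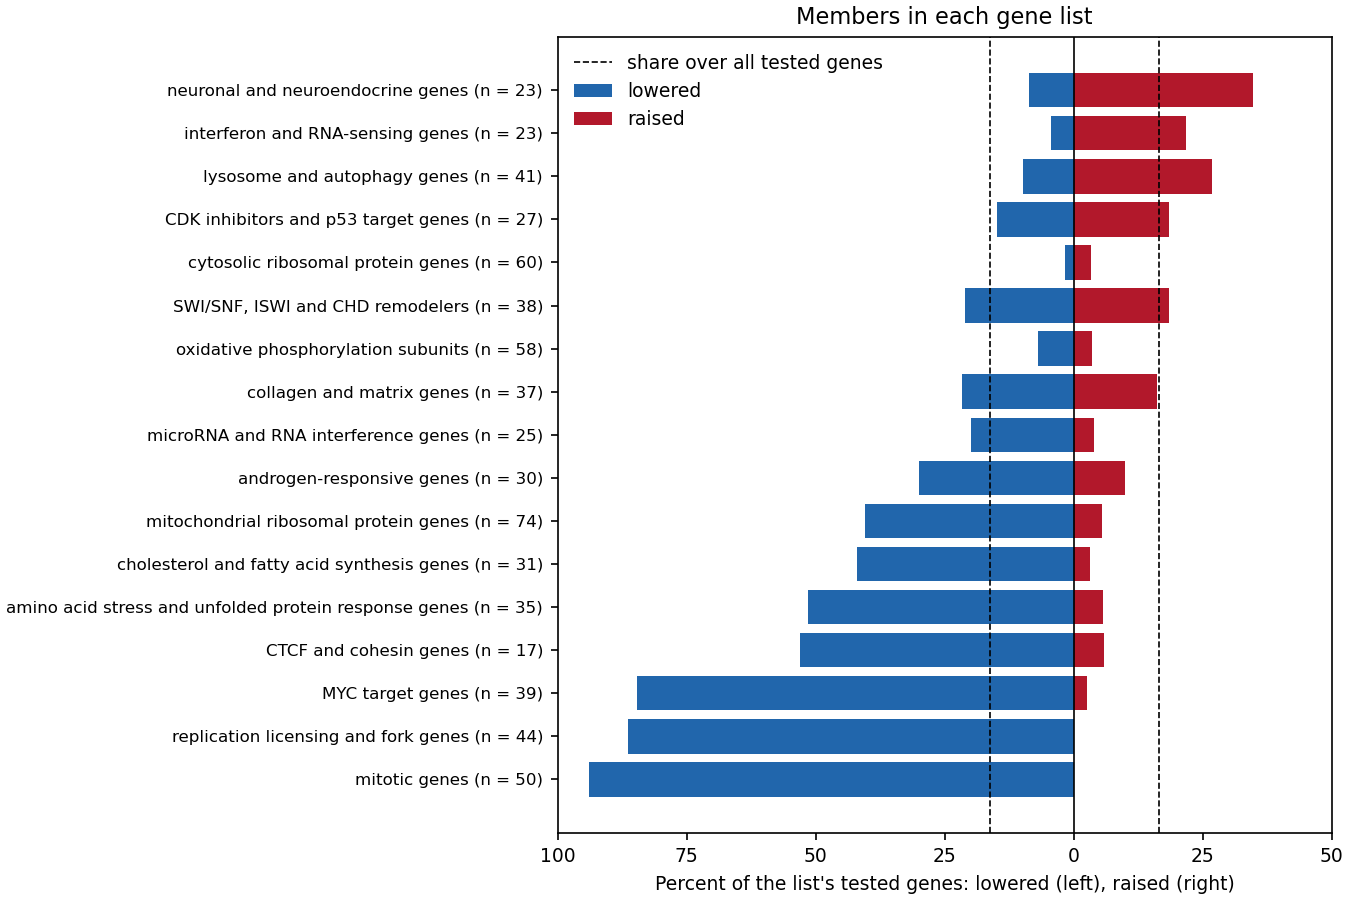
Percent of the tested genes of each list that were raised (right) or lowered (left) members, with the number tested beside each name. Dashed lines mark the shares over all tested genes, 16.3% lowered and 16.6% raised, and the mitotic, replication and MYC target lists extend to between 84.6% and 94.0% lowered.

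Of 60 cytosolic ribosomal protein genes, 2 were raised and 1 lowered, both below the shares over all genes. Many of these have processed pseudogenes, which makes their counts less certain. Of 74 mitochondrial ribosomal protein genes, 30 were lowered (40.5%, against 16.3% of all genes tested) and 4 raised (medians -0.20 and -0.12). *MRPL36* was the raised gene with the largest shared change of these, at 8.03, 7.25 and 7.49 CPM in control, 17.9, 18.4 and 15.1 CPM with si025 and 22.0, 21.3 and 19.7 CPM with si033. Among 58 subunits of oxidative phosphorylation, 4 were lowered and 2 raised (6.90% and 3.45%), both below the shares over all genes. *UQCR10* of complex III, a raised member, had log2 fold changes of 0.56 and 0.73.

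Of 35 genes of amino acid stress and the unfolded protein response, 18 were lowered, 2 raised and 15 neither (medians -0.33 and -0.27). The lowered share was 51.4%, against 16.3% of all genes tested. *HSPA5*, the ER chaperone BiP, was at 1697, 1743 and 1735 CPM in control, at 1008, 1093 and 1049 CPM with si025 and at 1172, 1210 and 1186 CPM with si033. *HSP90B1* and *PDIA4*, also of ER protein folding, had log2 fold changes of -0.78 and -0.56 and of -0.78 and -0.62. The raised members were *CREB3L1* and *CREB3L2*, membrane-bound transcription factors of ER stress. Of 31 genes of cholesterol and fatty acid synthesis, 13 were lowered (41.9%) and 1 raised (3.23%), with medians of -0.13 with si025 and -0.26 with si033. *HMGCS1*, of the mevalonate pathway, was at 563, 587 and 571 CPM in control, at 254, 249 and 264 CPM with si025 and at 377, 402 and 389 CPM with si033. *FDPS*, of the same pathway, had log2 fold changes of -0.82 and -0.50.

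Raised members outnumbered lowered ones in 5 of the 17 pathway lists, the cytosolic ribosomal proteins among them. Lysosome and autophagy genes had 11 raised and 4 lowered of 41 (26.8% and 9.76%, against 16.6% and 16.3% of all genes tested). *LAMP2*, a lysosomal membrane protein gene, was at 73.6, 72.9 and 77.8 CPM in control, 146, 135 and 146 CPM with si025 and 121, 126 and 125 CPM with si033. Neuronal and neuroendocrine genes had 8 raised and 2 lowered of 23 (34.8% and 8.70%). *SCG2*, a secretory granule protein gene, was at 6.11, 7.61 and 5.45 CPM in control, 10.5, 11.2 and 10.8 CPM with si025 and 11.4, 11.8 and 12 CPM with si033. *GRIN3A* and *NRXN3* were the lowered genes of that list.

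Interferon and RNA-sensing genes, which respond to double-stranded RNA, had 5 raised (21.7%, against 16.6% of all genes tested) and 1 lowered of 23. Their median log2 fold change was 0.33 with si025 and 0.016 with si033. The lowered gene, at 94.6 to 104 CPM in control, had log2 fold changes of -0.58 and -0.33. *STAT2*, a transcription factor of interferon signalling, was at 54.6, 61.8 and 61.9 CPM in control, 96.5, 94.4 and 95.2 CPM with si025 and 89.1, 77.6 and 87.3 CPM with si033. The interferon-induced genes *IFIT2*, *IFI6* and *ISG15* had no library above 10.2 CPM. CDK inhibitors and p53 target genes had 5 raised and 4 lowered of 27, near the shares over all genes. *CCNG1* and *ZMAT3* were raised (0.36 and 0.19, 0.74 and 0.28) and *BBC3* and *CDKN2D* lowered (-1.03 and -0.46, -0.79 and -0.34).

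Androgen-responsive genes had 9 lowered and 3 raised of 30, but their median log2 fold change was 0.12 with si025 and -0.21 with si033. The lowered share was above the 16.3% of all genes tested, and the raised share was below the 16.6%. Among the lowered genes was a gene also on the mitotic list, with log2 fold changes of -0.88 and -0.62. The part of androgen signalling in the lowered genes was not tested. *ADAMTS1*, a secreted protease, was lowered (-1.22 and -0.72), and *KLK3*, which encodes prostate-specific antigen, was raised from 11.9, 14.1 and 14.1 CPM in control to 42.1, 37.6 and 36.9 CPM with si025 and 21.3, 17.6 and 19.2 CPM with si033. Collagen and matrix genes had 8 lowered and 6 raised of 37 (21.6% and 16.2%), near the shares over all genes, with medians of 0.24 and -0.21. The summed CPM of the fibroblast markers was 17.2 to 19.3 in control, 36.8 to 44.1 with si025 and 9.06 to 11.5 with si033, and *LUM* made up most of it. The part of such cells in the matrix genes was not tested.

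Among chromatin genes, CTCF and cohesin genes had 9 lowered and 1 raised of 17 (52.9% and 5.88%, against 16.3% and 16.6% of all genes tested). *SMC1A*, a cohesin ring subunit, had log2 fold changes of -0.74 and -0.27, and *STAG2*, another cohesin subunit, -0.40 and -0.24. SWI/SNF, ISWI and CHD remodelers had 8 lowered and 7 raised of 38 (21.1% and 18.4%), near the shares over all genes. *ACTL6A* and *SMARCA2*, a subunit and an ATPase of SWI/SNF complexes, were lowered (-0.92 and -0.25, -0.27 and -0.67), while *SMARCD3*, another subunit, was raised from 3.49 to 3.91 CPM in control to between 7.20 and 9.73 CPM. Of 25 genes of the microRNA and RNA interference machinery, 5 were lowered and 1 raised. The lowered share was near that over all genes, and the raised share was below it. The median log2 fold change of this list was -0.054 with si025 and -0.039 with si033. *DCP2* and *PAN2*, of mRNA decapping and deadenylation, had the largest shared change.

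The members were next compared between si025 and si033, a contrast that the rule did not take but restricts, since both siRNAs had to lie on 1 side of control. The median absolute log2 difference between the siRNAs was 0.18 in raised members, 0.16 in lowered members and 0.29 in genes that were not members. Of all genes tested, 60.9% were called at an adjusted p under 0.05 (edgeR quasi-likelihood test). Of the 4210 members tested, 2216 were called (52.6%), with 1093 raised and 1123 lowered. The share was 64.9% of the 8600 genes that were not members, but the rule itself leaves out genes that moved in opposite directions. These members differed in level between the siRNAs although both lay on 1 side of control.

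si025 more often had the larger difference from control. Among the called members, si025 was further from control in 653 raised and 743 lowered genes, and si033 in 440 and 380. Most of these differences were small, with 80 raised and 46 lowered members differing by 2-fold or more. Of the 65 members with a shared change of at least 2-fold and a highest group mean of at least 5 CPM, 36 were called between the siRNAs and 29 were not. A raised gene can pass this floor through 1 siRNA alone, as *TGFB3* did with si033 (means 10.2 CPM with si033, 1.19 CPM with si025). The counts therefore do not describe members at large.

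*TGFB3*, a growth factor of the TGF-β family, differed most among these. It was at 0.87, 0.43 and 0.39 CPM in control, 1.25, 1.14 and 1.19 CPM with si025 and 11.9, 10.1 and 8.52 CPM with si033, a si025 minus si033 difference of -3.06 (SE 0.19, adjusted p = 2.00e-12). *CDH17*, a cadherin gene, was at 2.36, 2.25 and 2.01 CPM in control, 5.45, 4.71 and 5.79 CPM with si025 and 20.1, 19.7 and 17.7 CPM with si033 (difference -1.84, SE 0.11, adjusted p = 7.17e-13). Both were thus raised mainly with si033. The lowered genes *COL14A1* (1.80, SE 0.17, adjusted p = 2.56e-09), *RELN* (1.23, SE 0.18, adjusted p = 2.40e-06) and *NR2F1* (1.10, SE 0.17, adjusted p = 5.87e-06) were lower with si033.

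In other raised members most of the difference from control came from 1 siRNA. *CREB3L1* was at 2.44, 1.67 and 2.16 CPM in control, 23.4, 21.2 and 22.7 CPM with si025 and 3.13, 2.79 and 2.80 CPM with si033 (difference 2.96, SE 0.11, adjusted p = 4.79e-16). *MAF*, a transcription factor gene, was at 3.67, 3.91 and 3.86 CPM in control, 6.85, 6.65 and 6.19 CPM with si025 and 21.3, 19 and 20.6 CPM with si033 (difference -1.64, SE 0.09, adjusted p = 5.37e-13). Membership therefore does not mean that the siRNAs gave changes of like size.

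In the genes with the smallest difference, the siRNAs gave like levels. *STRADB* differed by -0.02 (SE 0.07, adjusted p = 0.846), *RAB6B* by 0.01 (SE 0.05, adjusted p = 0.917), *GDAP2* by -0.01 (SE 0.07, adjusted p = 0.862), *SLC15A2* by 0.03 (SE 0.10, adjusted p = 0.784) and *SNN* by -0.02 (SE 0.06, adjusted p = 0.825). *SLC15A2*, a peptide transporter gene, was at 4.80, 4.42 and 5.52 CPM in control, 11.4, 11.9 and 11.5 CPM with si025 and 11.1, 11.5 and 11.4 CPM with si033. *MDK* (0.09, SE 0.05, adjusted p = 0.0928), *FBN1* (0.22, SE 0.12, adjusted p = 0.117) and *ATP2B2* (0.27, SE 0.15, adjusted p = 0.116) were also not called. Without si025 replicate 2, *FBN1* was called (0.31, adjusted p = 0.0459). These p-values do not show that the siRNAs acted alike.

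**Figure D3:**
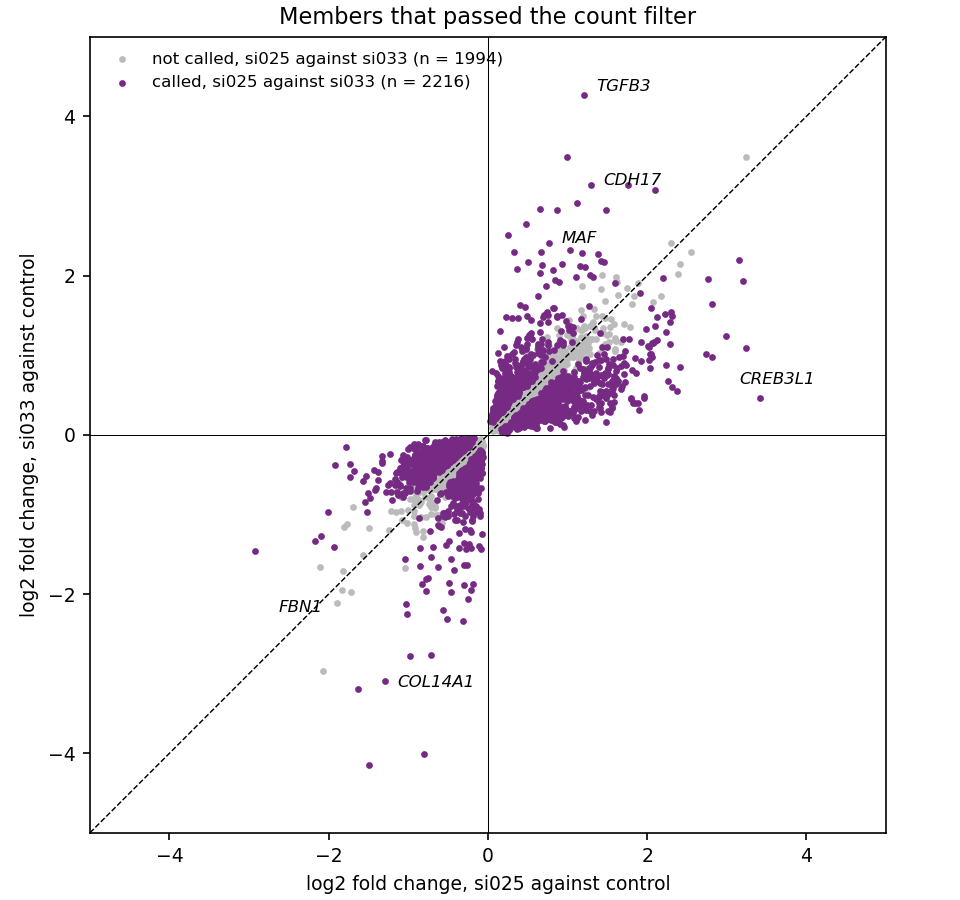
log2 fold change of each tested member with si025 (horizontal) and si033 (vertical), both against the same control libraries, so all points fall in the upper right or lower left by the rule. Purple marks the 2216 members called between the siRNAs, and the dashed line marks equal change.

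The expression level and base composition of raised and lowered members were also set side by side. The level comes from the same CPM values as the rule and is a description, whereas the rule did not use base composition. The level, taken as the mean CPM of the 3 groups per kilobase of exon, had a median of 6.0 in raised members, 15.7 in lowered members and 7.37 over all genes tested. From the lowest to the highest quartile of level, the share of raised genes was 18.3%, 18.9%, 16.3% and 12.9%, and that of lowered genes 5.71%, 12.9%, 19% and 27.4%. Counting noise is relatively larger at low counts, and its part in these shares was not tested. The median GC content of the transcript was 50.5% in raised, 45.2% in lowered and 48.2% in all genes tested. From the lowest to the highest quartile of GC content, raised genes went from 12.7% to 19.4% and lowered genes from 20.7% to 10%. With offsets for gene length and GC content in each library, 2047 members were raised and 2710 lowered.

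**Figure D4:**
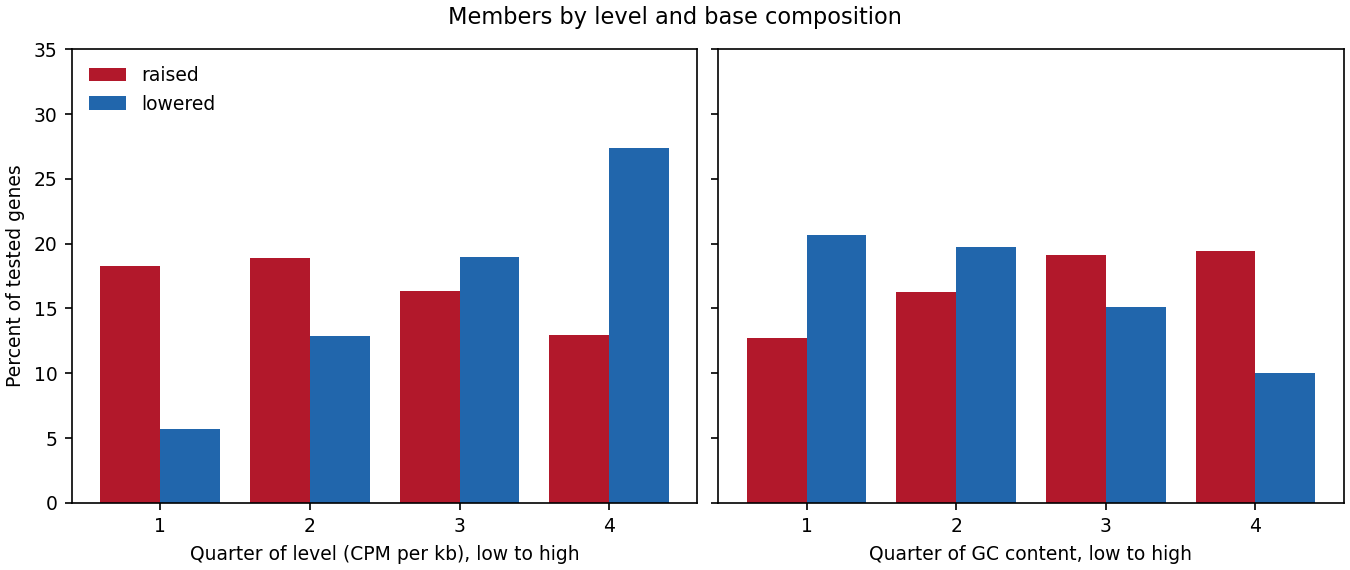
Percent of tested genes that were raised or lowered members in each quartile of expression level (left, mean CPM per kilobase of exon) and of transcript GC content (right). Lowered members went from 5.71% to 27.4% with level and from 20.7% to 10% with GC content.

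Across chromosomes the members were spread widely. Raised genes made up from 10.4% (chromosome 21) to 20.9% (chromosome 17) of the genes tested, and lowered genes from 12.9% (chromosome X) to 20.3% (chromosome 13). On chromosome 15, which holds *IGF1R-AS1*, the shares were 17.6% and 14.6%, near those over all genes.

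Since all comparisons share the control group, the 3′ UTRs of the members were searched for matches to the seed, bases 2 to 8, of each siRNA that the study lists. The sequences below are the strands antisense to the listed ones, with the seed in capitals, and are shown because their seeds define the searched words.
Control siRNA, guide strand: uUGAUGUGuuuagucgcua
IGF1R-AS1 siRNA 1, guide strand: uAGGUCUUcagugcuuucu
IGF1R-AS1 siRNA 2, guide strand: uUUCCACUgagcaauacgg
The 2 siRNAs against *IGF1R-AS1* match the minus strand of chromosome 15 (hg38) at chr15:98843733-98843751 and chr15:98843694-98843712, within *IGF1R* on the opposite strand. The labels do not say which of them is si025 or si033, nor that the control group received the listed control siRNA.

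The word CACATCA, the match to the seed of the control guide strand, was found in the 3′ UTR of 457 of 2044 raised members (22.4%), 171 of 1980 lowered members (8.64%) and 12.6% of all 12087 tested genes with a 3′ UTR. By the difference between the raised and the lowered share it ranked 1 of the 16249 words of 7 bases that occur in at least 50 of these genes. The matches of the remaining strands ranked between 6554 and 14593. The match of IGF1R-AS1 siRNA 1, AAGACCT, was in 12.1% of raised and 13.6% of lowered members, and that of siRNA 2, AGTGGAA, in 18.2% and 17.4%.

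Raised members had somewhat longer 3′ UTRs, with a median of 1837 bases against 1572 in lowered members. Within each quartile of 3′ UTR length, CACATCA was more frequent in raised than in lowered members, from 8.05% against 0.613% in the shortest to 40.3% against 22.2% in the longest. Of the tested genes without the word, 15% were raised and 17.1% lowered. With 1 copy, 29.7% were raised and 11.2% lowered, and with 2 or more copies 31.7% and 11.5%. Where an A followed the word, 35.7% were raised and 9.92% lowered. The tested genes with 1 copy had a median si025 minus si033 difference of 0.021. In the raised members whose nearest libraries were at least 0.5 apart on the log2 scale, the word was in 35.8%. The part of the control siRNA in the raised genes was not tested, and it cannot be told apart from a response to knockdown of *IGF1R-AS1* in these libraries.

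**Figure D5:**
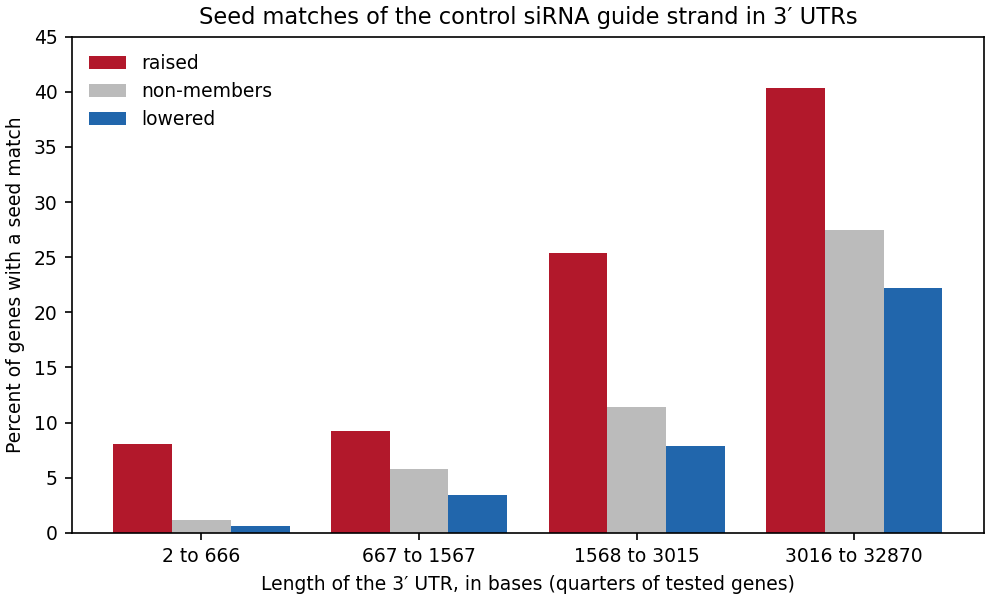
Percent of raised members, lowered members and other tested genes whose 3′ UTR holds a match to bases 2 to 8 of the control siRNA guide strand, within quartiles of 3′ UTR length. In each quartile the raised members have the highest share and the lowered members the lowest.

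Of the 12 leading raised members, 7 held the word. Of the 10 leading lowered members with a 3′ UTR, 2 held it, *PGR* and *COL14A1*. The sites of the raised members are shown 5′ to 3′ in the sense of the transcript, from the 3′ UTR in GENCODE version 44 (hg38), with the word in capitals.
MDK, chr11:46383763-46383785, plus strand: ctaagaaaCACATCAaataaact
TMCO1, chr1:165727965-165727987, minus strand: gacacacaCACATCAgactggca
CAPN2, chr1:223775021-223775043, plus strand: aagtttcaCACATCAaagtaaaa
ADAM23, chr2:206618452-206618474, plus strand: gattttgaCACATCAttttcact
SLC7A14, chr3:170460326-170460348, minus strand: catgtagtCACATCAtctgatga
RAB6B, chr3:133828603-133828625, minus strand: tcagggatCACATCActcttaac
RAB6B, chr3:133828219-133828241, minus strand: tggttgaaCACATCAgcctctga
KCND3, chr1:111775217-111775239, minus strand: tcctgaaaCACATCAgtaaagcc
KCND3, chr1:111773916-111773938, minus strand: aacctaaaCACATCAgagaatac
In *MDK* and *CAPN2* the word is followed by A. *ATP2B2*, *QPCT* and *STRADB*, with the largest shared increases over control among genes that reached 5 CPM, held no copy in the 3′ UTR used.

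Promoters were searched for 6 short motifs on both strands, from 250 bases before to 50 after the start site in RefSeq (GRCh38.p14), with 1709 raised, 1730 lowered and 10429 tested genes matched. CACGTG, the E-box that MYC and related factors bind, was in 13.4% of lowered, 7.78% of raised and 10.04% of all tested genes. The share was 8.91% of all 15383 promoters matched to the files. TTCCCGCC, a form of the E2F site of S phase genes, was in 8.21%, 3.57% and 5.09%, and TTTGAA, the cell cycle homology element of mitotic genes, in 13.9%, 8.48% and 9.32%. CCAAT was in 45%, 33.6% and 36.8%. TGACGTCA, the cyclic AMP response element, and a pair of GAAA spaced by 2 bases, a core of the interferon-stimulated response element, were in 3.99% of lowered and 3.04% of raised genes and in 3.06% and 2.22%. TTCCCGCC, TTTGAA and CCAAT were in 4.32%, 12% and 36.4% of all promoters matched to the files, and TGACGTCA and the spaced GAAA pair in 2.64% and 3.17%. A match to so short a motif is a description of the promoter and not a binding site.

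The E-boxes of lowered members named above are shown with the motif in capitals, in the sense of the gene. The other lowered members named above, *ODC1* and *TCOF1* among them, had no match or no matched promoter.
CENPF, chr1:214602990-214603019, plus strand: cattagcaaaagCACGTGgtctccgtctcc
CCNB1, chr5:69166942-69166971, plus strand: gcagaggcagacCACGTGagagcctggcca
HSP90B1, chr12:103930160-103930179, plus strand: ccCACGTGtgaggggcccgc
BBC3, chr19:47232882-47232911, minus strand: atggggagatttCACGTGagatatagatta
RELN, chr7:103989713-103989742, minus strand: gagcggccgggaCACGTGtggcggcggcgg
PGR, chr11:101129028-101129046, minus strand: ccccgggctcccCACGTGg
These genes have different roles, and *PGR* and *RELN* were lowered more with si033, whereas *CENPF*, *CCNB1*, *HSP90B1* and *BBC3* were lowered more with si025.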

How the data were processed

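The deposited values are raw counts, each the number of read pairs assigned to a gene. Per the file headers, the authors made the counts with featureCounts 1.5.2 over exons of a RefSeq annotation of hg38, with the reverse-stranded setting. The processing notes of the submitters name HISAT2 2.1.0. The headers name RefSeq and the study's methods GENCODE, and the labels and methods name different RNA extraction kits. Totals of 11649811 to 28492259 counts set the precision, and near-identical gene copies are less certain.

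Counts were filtered with filterByExpr (12810 genes kept), scaled with TMM and fitted with edgeR 4.0.16 in R 4.3.3, with 9 libraries in 1 fit of 3 group means, no covariate and the quasi-likelihood test. Benjamini-Hochberg adjustment covered all 12810 genes, with a threshold of 0.05. CPM are counts scaled by the TMM library size, and a log2 fold change with its SE comes from the fit. The fit was tested on simulated data. Groups were taken from the sample titles. Replicate numbers did not pair the libraries.

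Members and gene lists were chosen with earlier results of these data known. The genes named were the 12 raised and 12 lowered members with the largest shared change (the smaller of the absolute log2 fold changes of si025 and si033, at 5 CPM or more), the genes the study discussed, up to 4 members per pathway list in its main direction and up to 2 in the other, the 2 members just inside and 2 genes just outside the rule in each direction, and the 5 largest and 5 smallest differences between the siRNAs among members with a shared change of at least 2-fold. Not all genes so chosen are described. The marker genes, *LUM* among them, come from the marker lists, and some genes of the lists are not reported here.

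The longest 3′ UTR of each gene came from GENCODE version 44 (94.4% of genes tested), and siRNA sequences from the study's list of oligonucleotides, of which 19 bases were used. Promoters came from RefSeq, with 757 of 15383 symbols matched through a synonym. The alternatives were other scalings (RLE, upper quartile, library totals), no filter, offsets for gene length and GC content, a replicate block, DESeq2 1.42.0, a threshold of 0.01, wider gaps, another 3′ UTR and leaving out each library.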

Additional observations from a re-analysis of the deposited data

Results flagged for a closer look

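Of the 77 members named, 56 differed between si025 and si033 by the test of that difference (edgeR quasi-likelihood test, adjusted p of 0.0426 or less), beside 60.9% of all genes tested and 52.6% of members. The genes named include some picked for a large difference between the siRNAs, so their count says nothing of members at large. Values are si025 minus si033 on the log2 scale, and all 3 libraries of each siRNA lay on 1 side of control in every gene. Among raised members, those higher with si033 were *TGFB3* (-3.06), *CDH17* (-1.84), *MAF* (-1.64), *ADAM23* (-0.72), *IFI6* (-0.66), *NOP58* (-0.35), *CREB3L2* (-0.34), *ISG15* (-0.33), *CLNS1A* (-0.32), *SLC7A14* (-0.30), *MRPL36* (-0.29) and *UQCR10* (-0.18). Raised members higher with si025 were *CREB3L1* (2.96), *KLK3* (1.0), *KCND3* (0.65), *ZMAT3* (0.45), *SYTL1* (0.31), *QPCT* (0.22), *LAMP2* (0.20), *CCNG1* (0.17), *STAT2* (0.17) and *TMCO1* (0.13).

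Lowered members that were lower with si033 comprised *PGR* (1.80), *COL14A1* (1.80), *RELN* (1.23), *NR2F1* (1.10), *GRIN3A* (0.53), *NRXN3* (0.53), *MNS1* (0.51), *SMARCA2* (0.40), *ARHGAP19* (0.19) and *UBB* (0.18). Of the cell cycle and chromatin genes, those lower with si025 were *ACTL6A* (-0.67), *RRM2* (-0.56), *SMC1A* (-0.47), *GINS2* (-0.46), *CDC6* (-0.34), *CENPF* (-0.29), *CCNB1* (-0.21), *STAG2* (-0.16), *KIF23* (-0.13), *POLA2* (-0.13) and *HIST1H2BJ* (-0.53). Other lowered genes that were lower with si025 comprised *HMGCS1* (-0.61), *BBC3* (-0.57), *ODC1* (-0.54), *ADAMTS1* (-0.50), *TCOF1* (-0.46), *CDKN2D* (-0.44), *FDPS* (-0.32), *MYC* (-0.26), *PSMB5* (-0.23), *HSP90B1* (-0.22), *HSPA5* (-0.18), *PAN2* (-0.17) and *PDIA4* (-0.16). The genes of DNA replication, mitosis, ER folding and cholesterol synthesis named here were all further from control with si025 where they were called. For cholesterol synthesis this covers *HMGCS1* and *FDPS* only, and the median of the whole list was -0.13 with si025 and -0.26 with si033. The matrix and receptor genes *COL14A1*, *RELN*, *PGR* and *NR2F1* were further from control with si033.

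Of these differences, 12 were lost when a single library was left out, and the weakest value of each was as follows (edgeR, adjusted p). Without si033 replicate 3, the difference of *HIST1H2BJ* was -0.34 (0.195), that of *IFI6* -0.51 (0.118), that of *PAN2* -0.11 (0.178), that of *POLA2* -0.12 (0.0871) and that of *STAG2* -0.13 (0.0547). Without si025 replicate 3, *ARHGAP19* was at 0.12 (0.169), *BBC3* at -0.44 (0.0688), *MRPL36* at -0.20 (0.0612) and *QPCT* at 0.18 (0.11). Without si033 replicate 1, *SLC7A14* was at -0.23 (0.128) and *TMCO1* at 0.08 (0.242), and without si033 replicate 2 *STAT2* was at 0.11 (0.0912). *TMCO1* was also lost with RLE or upper quartile scaling, and *ARHGAP19*, *IFI6*, *QPCT*, *SLC7A14* and *TMCO1* were lost with DESeq2.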

How the results depend on the processing

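The counts of raised and lowered members, with those below the filter, were 1471 and 1221 when a gap of 0.1 on the log2 scale was required between the nearest libraries, and 311 and 118 at 0.5. They were 2698 and 1633 with library totals and 2047 and 2710 with offsets for length and GC content. Dropping a library lets more genes in by construction (2317 to 2637 raised and 2233 to 2458 lowered). Under the scalings and the offsets for length and GC content, 3439 members kept their direction, 1823 raised and 1616 lowered, and 72 of the 77 named. The exceptions were *DSTYK*, *SYTL1*, *UBB* and *PSMB5* at the edge of the rule and *ISG15*. Raised genes were 50.7% of members with TMM and 62.3% with library totals, and genes called higher were 50.7% and 60.9% of those called for the mean of both siRNAs. That contrast called 7511 genes, and 6424 to 7548 with a library left out, and si025 against si033 called 7801 and 7023 to 7804. The members that differ between the siRNAs numbered 2216, and 2010 to 2496 with a library left out, 2239 with the replicate block, 2029 with DESeq2 and 1757 at 0.01.

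Libraries of the same replicate number did not deviate together, with correlations from -0.028 to 0.093, so the block (7843 genes called between the siRNAs, 7587 for the mean of both) says nothing of pairing. The share of raised members with the word CACATCA was 24.9% at a gap of 0.1 and 35.8% at 0.5, and of lowered members 7.02% and 11%. Where a named member was called under the main or the other setting, its difference between the siRNAs kept its sign. Sign changes of differences called under neither were not counted. The call was lost by 12 and gained by 5 named members when a library was left out. The cause was not tested. With 3 libraries a group and no measure of the target, depth and knockdown limit what small differences can show.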
